A study of Mus musculus with 9 samples.

Results

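The synaptic vesicle release machinery was followed in preparations of retinal ganglion cells (RGCs) from mice with elevated intraocular pressure (IOP). Its members were taken by symbol alone, as every gene listed under the names of the synaptotagmins, synapsins, Sv2 proteins, VAMPs, syntaxins, syntaxin-binding proteins, Snap25, complexins, Rims, Rab3 proteins, Unc13 proteins, synaptogyrins and synaptophysin, and the rule itself uses no measured value. These names matched 74 of 23997 gene symbols, and 67 of the 74 were abundant enough to be tested.

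RGCs were purified by immunopanning from retinas of C57BL/6J mice, labelled as 8 weeks old, 2 weeks after an injection into the anterior chamber of the eye. Control eyes had received saline, and the eyes of the Mild IOP and Moderate IOP groups had received microbeads, which obstruct the outflow of aqueous humour. The labels name no allele, transgene or further agent in any of the 3 groups. RNA of each group was pooled and split into 3 technical replicates (3 libraries per group, 9 in all), so every error and p-value below covers the spread between libraries of 1 pool and not the spread between animals.

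A neuron releases transmitter when a synaptic vesicle docks at the active zone, is primed, and fuses with the plasma membrane upon calcium entry. Fusion is driven by the SNARE proteins, which zip together from the vesicle (VAMPs) and the plasma membrane (syntaxins and SNAP-25). Munc13 proteins (Unc13 genes) prime the SNAREs, complexins hold and help the assembled complex, synaptotagmins sense calcium, and Rim and Rab3 proteins tether vesicles at the release site. RGCs release glutamate from axon terminals in the brain, and most other retinal neurons release transmitter within the retina, where photoreceptors and bipolar cells use ribbon synapses with complexins of their own.

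Levels are given as scaled FPKM, fragments per kilobase of transcript normalised to library size, divided by a median-of-ratios factor for each library, and because FPKM is per length they can be set side by side between genes. Values after ± are SD over the 3 libraries of a group. Differences are log2 fold changes on the scale log2(scaled FPKM + 1), which understates the change of low genes, and a member was called at an FDR (adjusted p from limma over all 13043 genes tested) below 0.1.

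The libraries were of RGCs by label, and markers of RGCs and of other retinal cells were present. Levels below are therefore those of the preparation and not of RGCs alone. The 14 listed RGC markers summed to 1752 ± 48.8 scaled FPKM in Control, to 1457 ± 175 under Mild IOP and to 2657 ± 88.0 under Moderate IOP. Sncg alone held 911 ± 49.6, 641 ± 117 and 1389 ± 34.1 of these sums. Against Control, 3 of the 14 markers were above 0 in Mild IOP and 10 in Moderate IOP. Of these 14, 7 were called higher in Moderate IOP than in Mild IOP, beside 7.03% of all genes. Markers of amacrine cells, the inhibitory interneurons of the retina, summed to 1857 ± 54.3, 1943 ± 104 and 1478 ± 86.1 in the same order. The amacrine sum lay above the RGC sum in Control and under Mild IOP, and the lists differ in their genes. Here 4 of 9 tested markers were called lower in Moderate IOP than in Mild IOP, beside 3.12% of all genes. Rod markers summed to 659 ± 41.1, 456 ± 13.3 and 467 ± 22.5, and Müller glia and astrocyte markers to 118 ± 5.66, 122 ± 15.2 and 194 ± 28.5. Bipolar cell markers summed to 167 ± 44.2, 147 ± 40.8 and 226 ± 30.4, with Vsx1 listed at 0. Markers of microglia and vessels summed to 9.34 ± 7.04, 12.6 ± 8.17 and 16.1 ± 5.50, with Cldn5 and Cdh5 listed at 0. Against Control, 2 of 12 rod markers were called lower in Mild IOP, beside 0.391% of all genes. In Moderate IOP, 3 rod and 2 amacrine markers were called lower, beside 0.889%. There 2 RGC and 2 of 6 tested glial markers were called higher, beside 0.951%. In Moderate IOP against Mild IOP, 2 glial markers and 1 bipolar marker were also called higher. In these bulk samples, fewer cells of a type and less RNA per cell cannot be told apart, and the part of these marker shifts in the results below was not tested. A single microRNA gene held 20.5% of summed FPKM in Mild IOP replicate 2 (Mir1249) and 9.14% in Moderate IOP replicate 3 (Mir8104), against 1.87% to 3.59% for the leading gene of the other libraries, and results that rest on these 2 libraries are also given without them.

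The release machinery was abundant and dominated by a few genes. Snap25, the plasma membrane SNARE, had a mean of 2658 scaled FPKM over the 9 libraries and stood 11th among all genes. Rab3a, the main Rab protein of synaptic vesicles, followed at 946, Cplx3, a complexin of ribbon synapses and some amacrine cells, at 733, and Vamp2, the vesicle SNARE, at 698. Syp (synaptophysin, a vesicle membrane protein) reached 540 and Syt1 (the fast calcium sensor) 412. These 6 genes made up 73.1% of the summed level of all members, and Snap25 alone 32.4%. At least 100 scaled FPKM was reached by 13 members, 10 to 100 by 27, 1 to 10 by 23 and 0.5 to 1 by 4. The median tested member stood at 16.1 scaled FPKM, against 8.55 for all genes tested.

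The 7 members that were not tested lay under a mean of 0.5 scaled FPKM. Stxbp3b, Syt8 and Vamp7 were listed at 0 in every library, and Vamp7 was annotated on an unplaced X chromosome scaffold. Stx11, Syt17, Vamp5 and Syngr4 were listed at 0 in 7, 6, 3 and 8 of the 9 libraries. At the other end, 65 of the 74 members were above 0 in every library.

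**Figure D1:**
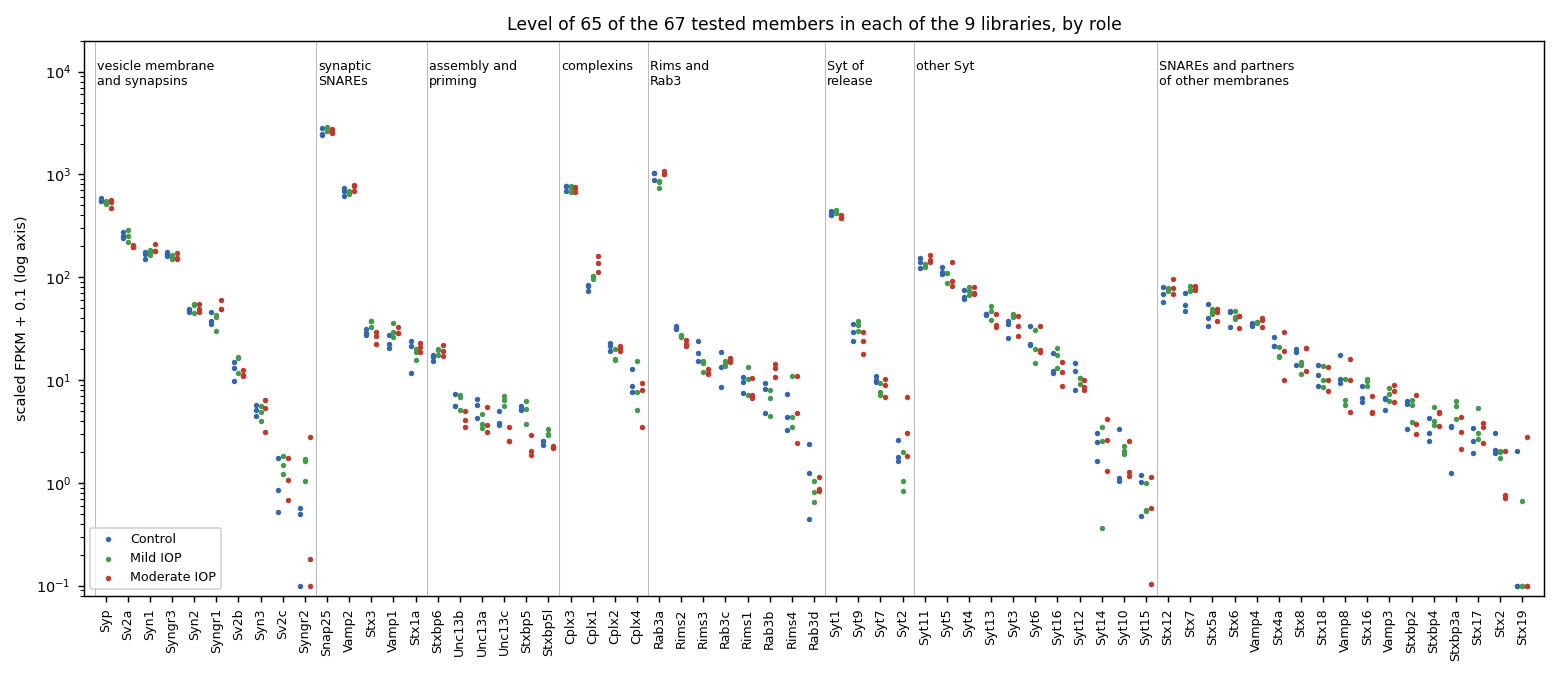
Level of 65 of the 67 tested members in each library, as scaled FPKM + 0.1 on a log axis, ordered by role and then by mean level; each point is 1 technical library, coloured by group. Levels span from Snap25 at 2658 to members under 1, and the 3 colours overlap for most genes.

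Within families 1 paralog usually led. Syt1 stood 219 times above Syt2, its close relative (log2 ratio 7.77 over the 9 libraries). Rab3a stood 65.8 times above Rab3c, and Sv2a, a vesicle glycoprotein, 18.3 times above Sv2b. Vamp2 led Vamp1 (log2 ratio of Vamp1 to Vamp2 -4.66). Syn1, a synapsin that clusters vesicles, stood 3.55 times above Syn2. Among the scaffolding Rims, Rims2 led Rims1 (Rims1 to Rims2: -1.61), and this value moved to -2.59 when the higher of the 2 loci listed for Rims1 was used alone. Unc13a and Unc13b, which encode priming factors, had a log2 ratio of -0.18 ± 0.54 in Control, of -0.69 ± 0.35 under Mild IOP and of -0.059 ± 0.70 under Moderate IOP, with all 3 Mild libraries below 0 (-1.10 to -0.44) and both signs in the other groups.

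Cplx3 was the leading complexin. The ratio of Cplx1 to Cplx3 on the log2 scale was -3.23 ± 0.025 in Control, then -2.85 ± 0.11 under Mild IOP and -2.43 ± 0.33 under Moderate IOP, a pair that was added after the values were seen. The log2 ratio of Cplx1 to Cplx2 was 1.92 ± 0.18, 2.56 ± 0.18 and 2.73 ± 0.30 in the same order, and the lowest microbead library (2.35) lay above the highest Control library (2.12).

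The summed level of the members overlapped between the groups after scaling. It was 8154 ± 146 scaled FPKM in Control, against 8153 ± 129 under Mild IOP and 8277 ± 288 under Moderate IOP, and the ranges of all 3 groups overlapped. Without scaling the Mild libraries (8522 to 8656) lay above those of Control (8178 to 8428) and Moderate IOP (8041 to 8451). Without Snap25 the sums were 5567 ± 209, 5409 ± 41.8 and 5633 ± 162.

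Which members changed with a Mild elevation of IOP was asked first, by comparing Mild IOP with Control. None of the 67 tested members was called by limma, where 0.399% of all 13043 genes were (0.00767% higher and 0.391% lower). At an unadjusted p below 0.05, 5 members differed (4 higher and 1 lower), or 7.46% of members beside 10.2% of all genes. The groups did not overlap for 11 members that were higher in Mild IOP (16.4%, beside 7.94% of all genes) and for 5 that were lower (7.46%, beside 9.13%). The median member differed by 0.034 on the log2 scale, and the median of all genes by 0.0062.

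The members with the largest differences in this comparison stayed short of the threshold. Syngr2, a synaptogyrin, differed by 0.87 and was near the limit of detection, at 0.291 ± 0.255 in Control and 1.35 ± 0.363 in Mild IOP. Stxbp3a, a syntaxin-binding protein that works outside synapses, had 2.68 ± 1.32 and 5.24 ± 1.05 scaled FPKM (difference 0.82, SE 0.33, limma FDR 0.417). Unc13c, the Munc13-3 priming factor, differed by 0.53 (SE 0.22, limma FDR 0.428). On the lower side stood Vamp8, a SNARE of endosomes and secretory cells, with -0.65 (SE 0.38, limma FDR 0.63), Syt2 with -0.42 (SE 0.38, limma FDR 0.784) and Rims3, a short Rim protein, with -0.41 (SE 0.19, limma FDR 0.515).

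Moderate IOP was compared with Control next, and 1 member of 67 was called, Cplx1, which was higher (1.49% of members, beside 1.84% of all genes in either direction, 0.951% higher and 0.889% lower). At an unadjusted p below 0.05, 9 members differed (4 higher and 5 lower), or 13.4% beside 15.3% of all genes. The groups did not overlap for 6 members that were higher (8.96%, beside 9.95%) and 8 that were lower (11.9%, beside 9.48%). The median member differed by -0.047, and the median of all genes by 0.004.

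Cplx1 encodes complexin 1, which binds the assembled SNARE complex in conventional synapses, and lies at chr5:108518554-108550027 (mm10). Its level in the 3 Control libraries was 83.6, 81.9 and 73.4 scaled FPKM. In Mild IOP it was 97.1, 102 and 103, and in Moderate IOP it was 112, 159 and 137. All Mild libraries lay above all Control libraries, and all Moderate libraries lay above all Mild libraries. Cplx1 rose by 0.75 on the log2 scale from Control to Moderate IOP (SE 0.14, limma FDR 0.038, 95% interval 0.45 to 1.05), a 1.68-fold difference. The steps from Control to Mild IOP (0.33, SE 0.14, limma FDR 0.424) and from Mild IOP to Moderate IOP (0.42, SE 0.14, limma FDR 0.108) were not called. The call was lost without Control replicate 1 (FDR 0.105), without Control replicate 2 (FDR 0.103) or without Moderate IOP replicate 2 (FDR 0.114), with differences of 0.79, 0.77 and 0.63, and without both microRNA-rich libraries (0.73, FDR 0.101). It was kept in 15 of 19 alternative fits.

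The other complexins were not called in any comparison. Cplx3 had 748 ± 43.2 scaled FPKM in Control, beside 729 ± 54.6 under Mild IOP and 724 ± 42.0 under Moderate IOP, and its Moderate difference from Control was -0.047 with a 95% interval of -0.28 to 0.18. Cplx2, the relative of Cplx1 in conventional synapses, had 21.1 ± 1.83, 17.2 ± 2.57 and 20.2 ± 1.22.

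The sequence before the start of 4 members is shown because Cplx1 and Cplx3 are complexins that differed in level and in the Moderate comparison, and because Rab3b and Stxbp5 were called in opposite directions between the microbead groups. Each is the 300 bases from 250 before to 50 after the start, 5′ to 3′ on the gene's strand, from RefSeq on GRCm38.p6 (the assembly of mm10), and their starts equal the edge of the locus in the deposited tables. Capitals mark a GC box (GGGCGG, or CCGCCC on the other strand), the TATA box (TATAAA) and the palindromic NRF1 site, which is the capital run of the Stxbp5 line after its first GC boxes. The palindromic cAMP response element was searched as well, and all were searched on both strands.
Cplx1, chr5:108549978-108550277, minus strand: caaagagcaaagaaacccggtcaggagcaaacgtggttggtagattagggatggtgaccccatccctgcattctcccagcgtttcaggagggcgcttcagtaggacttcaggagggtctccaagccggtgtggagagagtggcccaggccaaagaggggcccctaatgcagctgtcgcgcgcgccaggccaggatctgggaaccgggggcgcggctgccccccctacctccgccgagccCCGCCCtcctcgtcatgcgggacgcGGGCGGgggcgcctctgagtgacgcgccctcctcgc
Cplx3, chr9:57606232-57606531, minus strand: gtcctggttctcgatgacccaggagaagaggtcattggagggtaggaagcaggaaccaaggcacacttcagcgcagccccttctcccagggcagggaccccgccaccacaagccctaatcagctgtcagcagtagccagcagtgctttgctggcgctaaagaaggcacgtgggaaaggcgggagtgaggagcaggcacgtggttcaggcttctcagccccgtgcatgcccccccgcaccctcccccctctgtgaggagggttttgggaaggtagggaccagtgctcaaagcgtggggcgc
Rab3b, chr4:108878820-108879119, plus strand: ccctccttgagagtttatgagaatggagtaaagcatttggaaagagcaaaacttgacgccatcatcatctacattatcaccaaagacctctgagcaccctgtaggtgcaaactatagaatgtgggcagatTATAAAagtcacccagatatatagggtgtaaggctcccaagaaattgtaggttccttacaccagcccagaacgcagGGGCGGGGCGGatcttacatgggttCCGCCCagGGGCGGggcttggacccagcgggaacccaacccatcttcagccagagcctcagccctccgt
Stxbp5, chr10:9900991-9901290, minus strand: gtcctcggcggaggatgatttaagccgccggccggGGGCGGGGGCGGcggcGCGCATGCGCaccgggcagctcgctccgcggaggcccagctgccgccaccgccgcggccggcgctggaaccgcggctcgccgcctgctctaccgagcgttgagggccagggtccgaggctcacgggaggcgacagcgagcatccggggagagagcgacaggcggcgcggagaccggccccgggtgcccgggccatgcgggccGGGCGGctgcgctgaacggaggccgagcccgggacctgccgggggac
The Cplx1 window held 2 GC boxes, the Rab3b window 4 with a TATA box, and the Stxbp5 window 3 with an NRF1 site, while the Cplx3 window held none of the 4 motifs. Overlapping matches were counted separately. Of 41 members with a start equal to the locus edge, 32 (78.0%) had a GC box, beside 35.7% of 32851 promoters of the same length. These were all promoters, without that limit on the start, so the shares here rest on unlike selections. The median GC content was 63.3% for these members and 52.7% for all promoters. The share with a TATA box was 7.32% beside 13.6%, with an NRF1 site 4.88% beside 0.971%, and with a cAMP response element 2.44% beside 1.79%. RefSeq windows were matched for 54 of the 74 members. A match is a description of letters in this window and does not show that a factor binds.

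No priming factor or Rim was called against Control. Of the 7 members that assemble or prime SNAREs, 6 were below 0 in Moderate IOP, with a median of -0.37. Stxbp5 encodes tomosyn, which competes with the vesicle SNARE and restrains release, and was at -0.97 (SE 0.24, limma FDR 0.103). Rims3 was at -0.61 (SE 0.19, limma FDR 0.175) and Rims2 at -0.48 (SE 0.13, limma FDR 0.119). Rims2 had 31.9, 31.4 and 33.5 scaled FPKM in the Control libraries, then 26.6, 26.3 and 27.1 under Mild IOP and 21.5, 22.6 and 24.5 under Moderate IOP. Its 3 groups did not overlap, in the order Control, Mild, Moderate.

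Of 10 tested vesicle membrane proteins and synapsins and 6 synaptic SNAREs, none was called against Control at either pressure. Sv2a was at 256 ± 16.7 in Control, then at 254 ± 32.9 under Mild IOP and 199.5 ± 6.50 under Moderate IOP, a Moderate difference of -0.35 (SE 0.12, limma FDR 0.196). Syngr1, a synaptogyrin, was at 39.3 ± 5.52, 38.0 ± 6.80 and 52.8 ± 6.28, with a Moderate difference of 0.42 (SE 0.17, limma FDR 0.282). Stx7, a SNARE of late endosomes, was at 57.2 ± 11.7, 76.9 ± 5.05 and 77.6 ± 3.75, above Control in both microbead groups (0.44, limma FDR 0.305, and 0.45, limma FDR 0.189). The 2 comparisons share the Control libraries. Vamp1 was at 23.4 ± 3.67, 30.3 ± 4.76 and 29.8 ± 2.31, with no call.

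The synaptotagmins had no call in any comparison, over 4 of release and 11 others. Syt9, a calcium sensor related to Syt1, was at 29.3 ± 5.39 scaled FPKM in Control, then at 33.7 ± 3.87 under Mild IOP and 23.5 ± 5.77 under Moderate IOP, and its Moderate libraries lay below the Mild ones (-0.52, SE 0.20, limma FDR 0.159). Syt11, a synaptotagmin that does not bind calcium, was at 139 ± 15.1, 130.2 ± 3.26 and 151 ± 12.3, and Syt5 at 115 ± 9.66, 102 ± 12.7 and 105 ± 32.1. Among 17 tested SNAREs and partners of other membranes, none was called against Control, and Stx16 was the single call between the microbead groups. Stx12, an endosomal syntaxin, had the highest mean of this group over the 9 libraries, at 69.0 ± 11.5, 76.4 ± 3.28 and 81.5 ± 13.8, and Stx2, a syntaxin of the plasma membrane, was near the floor at 2.27 ± 0.618, 1.82 ± 0.154 and 1.07 ± 0.748.

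For the most abundant members the intervals were narrow enough to bound a difference between these pools. They hold no spread between animals and so do not bound an effect of pressure. Among the 15 members with the highest level, the 95% interval lay within a 1.5-fold difference either way for 12 in each of the 3 comparisons. Over all 67 tested members this held for 23 in Mild against Control (34.3%, beside 24.8% of all genes), 25 in Moderate against Control (37.3%, beside 22.7%) and 27 in Moderate against Mild (40.3%, beside 18%). Snap25 differed from Control by 0.087 under Mild IOP (interval -0.15 to 0.32) and by 0.034 under Moderate IOP (interval -0.20 to 0.27). Vamp2 differed by -0.048 (interval -0.28 to 0.18) and 0.14 (interval -0.097 to 0.37), and Syt1 by 0.034 (interval -0.18 to 0.25) and -0.13 (interval -0.35 to 0.085).

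**Figure D2:**
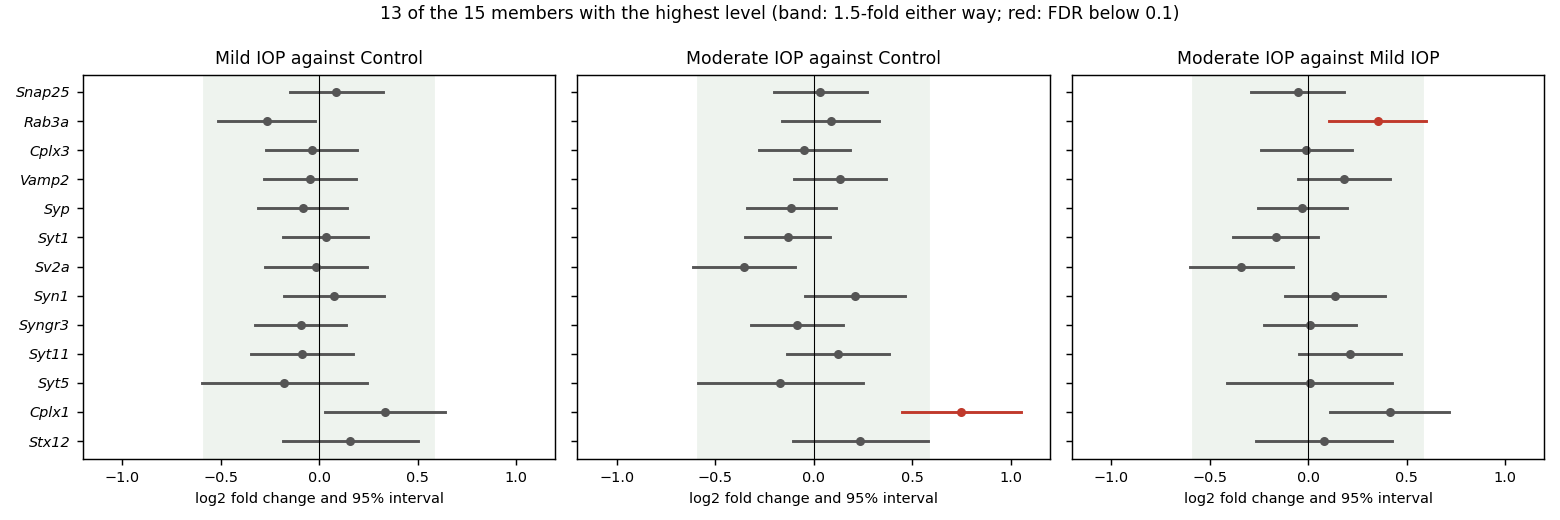
Log2 fold change (point) with its 95% interval (line) for 13 of the 15 members with the highest level, 1 panel per comparison; the band marks 1.5-fold either way and red marks an FDR below 0.1. Most lines sit inside the band, and Cplx1 in Moderate IOP against Control (0.75) and Rab3a in Moderate IOP against Mild IOP (0.35) are red.

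The 2 microbead groups were compared directly last. Of the 67 members, 5 were called by limma (7.46%, beside 10.2% of all genes), 2 higher in Moderate IOP (2.99%, beside 7.03%) and 3 lower (4.48%, beside 3.12%). At an unadjusted p below 0.05, 12 members differed (17.9%, beside 21.8%). Groups did not overlap for 6 members that were higher (8.96%, beside 14.5%) and 10 that were lower (14.9%, beside 13%). The median member differed by -0.035, and the median of all genes by -0.016. Without scaling the split of members was 1 higher and 5 lower, and with upper-quartile scaling 1 higher and 4 lower.

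Unc13c (chr9:73479424-73933567), a Munc13 priming factor best known from the cerebellum, was the member with the lowest FDR in this comparison. It had 6.29, 6.96 and 5.55 scaled FPKM under Mild IOP and 3.37, 2.46 and 2.44 under Moderate IOP, with 4.86, 3.74 and 3.52 in Control. Mild lay above Control and Moderate below Control, without overlap. Unc13c fell by 0.96 from Mild to Moderate IOP (SE 0.22, limma FDR 0.031), and the call was lost without Mild IOP replicate 2 (FDR 0.135) and without both microRNA-rich libraries (FDR 0.22).

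Stxbp5 (chr10:9755547-9901040) had 5.10, 6.18 and 3.61 scaled FPKM in Mild IOP, 1.93, 1.77 and 2.84 in Moderate IOP, and 5.45, 5.01 and 5.08 in Control. Every Moderate library lay below every other library. Stxbp5 fell by 0.90 from Mild to Moderate IOP (SE 0.24, limma FDR 0.055). The call was kept in 13 of 19 alternatives and lost without Mild IOP replicates 1 and 2 or Moderate IOP replicates 1 and 2, each left out in turn (FDR 0.161, 0.222, 0.126 and 0.137).

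Stx16 (chr2:174077051-174099771), a SNARE of the trans-Golgi network, had 8.57, 9.65 and 10.1 scaled FPKM under Mild IOP and 6.83, 4.77 and 4.63 under Moderate IOP, with 6.53, 6.08 and 8.66 in Control. Control overlapped both groups, which did not overlap each other. Stx16 fell by 0.72 (SE 0.21, limma FDR 0.078), a call lost without Mild IOP replicates 1, 2 or 3 or Moderate IOP replicates 2 or 3 (FDR 0.148, 0.222, 0.172, 0.176 and 0.166).

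Rab3b (chr4:108879070-108943324), a Rab3 protein with a narrower distribution than Rab3a, had 7.91, 4.33 and 6.65 scaled FPKM in Mild IOP, 14.3, 13.0 and 10.5 in Moderate IOP, and 4.67, 8.02 and 9.25 in Control. The Moderate libraries lay above all others. Rab3b rose by 0.92 from Mild to Moderate IOP (SE 0.27, limma FDR 0.076). The call was lost without Mild IOP replicates 2 or 3 or Moderate IOP replicates 1 or 2 (FDR 0.266, 0.114, 0.173 and 0.162), and the difference of Moderate IOP from Control was 0.75 (limma FDR 0.229).

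Rab3a (chr8:70754679-70758686) had 861, 737 and 851 scaled FPKM under Mild IOP and 1019, 1013 and 1090.0 under Moderate IOP, with 1034.5, 1034 and 878 in Control. Mild libraries lay below the libraries of both other groups, and Control overlapped Moderate. Rab3a rose by 0.35 from Mild to Moderate IOP (SE 0.11, limma FDR 0.093), and of the 9 fits that left out 1 library the call was kept only without Control replicate 3 (FDR 0.0699). The FDR in the other fits was 0.121 and 0.125 (Control replicates 1 and 2), 0.166, 0.213 and 0.105 (Mild IOP replicates 1, 2 and 3) and 0.16, 0.175 and 0.205 (Moderate IOP replicates 1, 2 and 3). Without both microRNA-rich libraries none of the 5 members was called, and the FDR was 0.179 for Stxbp5, 0.343 for Stx16, 0.247 for Rab3b and 0.354 for Rab3a.

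Syt2, a fast calcium sensor of some inhibitory and retinal synapses, showed the largest positive difference of the tested members in this comparison, 1.04 (SE 0.38, limma FDR 0.144), on levels of 1.19 ± 0.628 under Mild IOP and 3.84 ± 2.65 under Moderate IOP, and was not called. The spread in Moderate IOP came from 1 library at 6.82, beside 1.73 and 2.98.

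**Figure D3:**
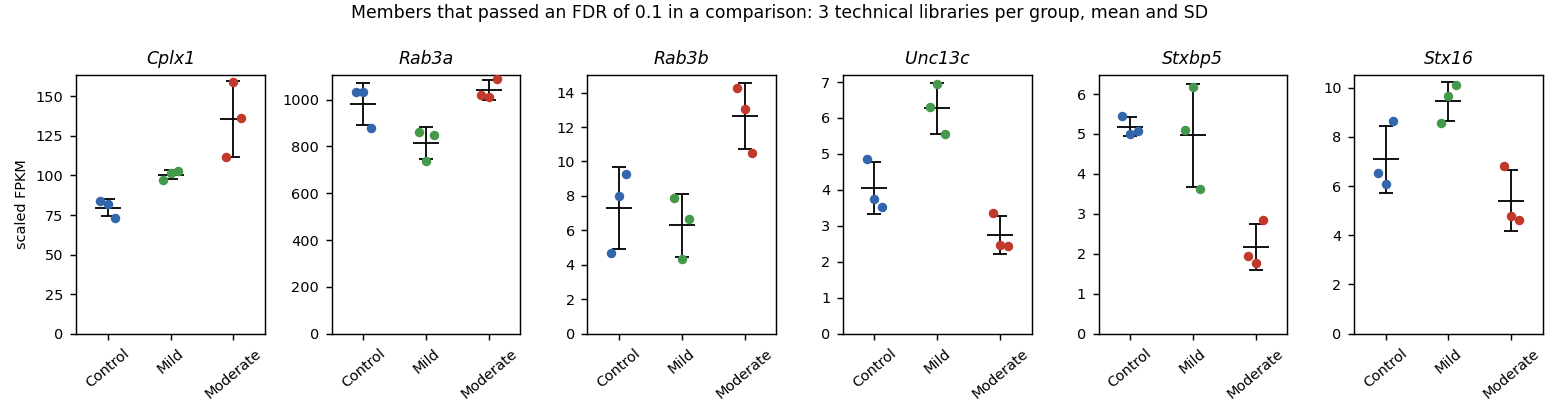
Scaled FPKM of the 6 members called in at least 1 comparison, with each axis from 0; points are technical libraries and bars are the mean and SD of 3 libraries. Cplx1 increases from Control to Moderate IOP, Rab3b is highest in Moderate IOP, and Unc13c, Stxbp5 and Stx16 are lowest there.

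Of the 67 members, 36 were above 0 in Mild against Control, beside 6637 of 13043 for all genes, and 30 in Moderate against Control, beside 6581. In Moderate against Mild 27 of 67 were above 0, beside 6314 of 13043 for all genes.

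**Figure D4:**
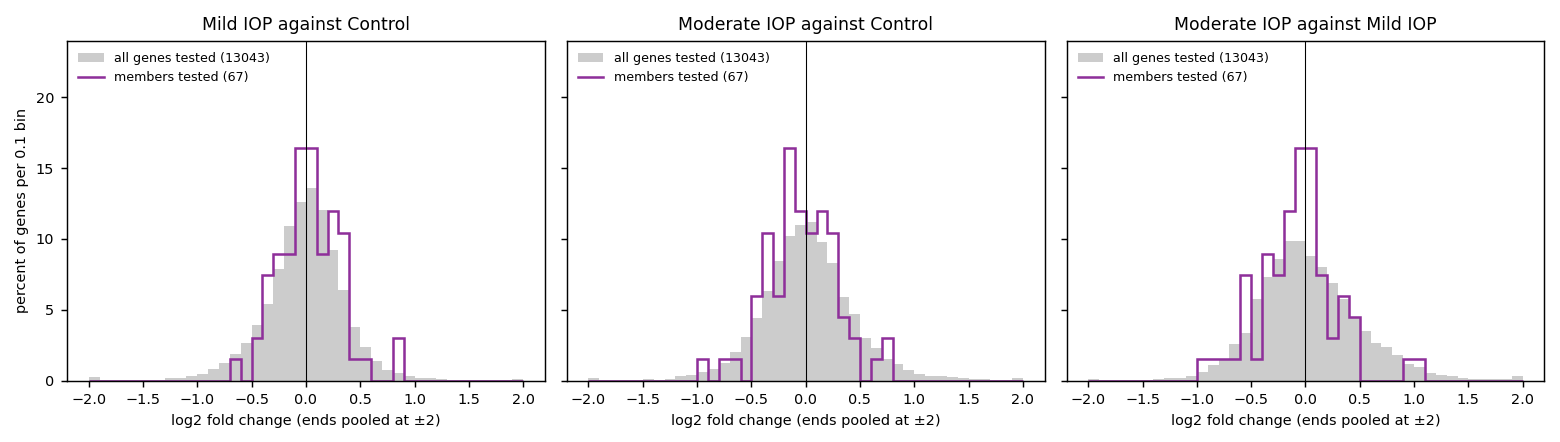
Distribution of log2 fold changes in bins of 0.1, as a percent of genes, for all 13043 genes tested (grey) and the 67 members (line), 1 panel per comparison. Both distributions centre near 0, and the widest member differences are -0.97 (Stxbp5) and 1.04 (Syt2).

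Gene length went with the direction of the differences between the microbead groups, in members as in all genes. Of 19 members with a locus over 100 kb, 6 were above 0 and 13 below in Moderate against Mild (median -0.21), beside 21 above and 27 below for the 48 shorter members (median -0.023). Over all genes the medians were -0.14 for 1779 long loci and 0.0077 for 11264 shorter ones. Of the 5 called members, Unc13c and Stxbp5, both lower, are among the long loci, at 454 and 145 kb. Rab3a and Rab3b, both higher, are short, at 4.01 and 64.3 kb. Stx16 goes against this order, as it was called lower from a short locus of 22.7 kb. The part of length in these calls was not tested.

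Genes that work beside the release machinery were counted from 4 lists of 54 genes. Against Control no gene was called in Mild IOP, and 1 in Moderate IOP (beside 1.84% of all genes), Svop, a vesicle transporter-like protein that fell by 0.59 on the log2 scale (limma FDR 0.068). In Moderate against Mild, where 10.2% of all genes were called (7.03% higher and 3.12% lower), 1 of 11 active zone scaffolds was called, Cask, a presynaptic scaffold kinase that fell by 0.60 (limma FDR 0.094), and 1 of 12 tested SNARE recycling and fusion factors, Napb (beta-SNAP), which fell by 0.49 (limma FDR 0.037). Of 18 endocytosis genes, 3 were called higher and 4 lower. The higher ones were Ap2s1 (0.61, limma FDR 0.023), the small subunit of the AP-2 adaptor, and the clathrin light chains Clta (0.56, limma FDR 0.066) and Cltb (0.51, limma FDR 0.048). The lower ones were the clathrin heavy chain Cltc (-0.72, limma FDR 0.013), the AP-2 subunit Ap2a2 (-0.46, limma FDR 0.056), the clathrin assembly protein Snap91 (-0.54, limma FDR 0.053) and endophilin A1, Sh3gl2 (-0.31, limma FDR 0.095).

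Syn1 and Syp are X-linked, and the pools differed in sex-linked transcripts, with Xist at 4.74 ± 2.30 scaled FPKM in Control, then at 1.57 ± 0.388 under Mild IOP and 10.1 ± 0.896 under Moderate IOP, and the Y-linked Ddx3y at 2.19 ± 0.868, 8.88 ± 0.547 and 0.349 ± 0.222. Neither Syn1 nor Syp was called in any comparison. Syp was at 565 ± 22.3, 533 ± 13.7 and 523 ± 45.6, and Syn1 at 164 ± 13.2, 173 ± 10.2 and 190.3 ± 17.3. Sex and pressure group cannot be told apart in these pools.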

How the data were processed

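RNA-seq of immunopanned RGCs was available for 3 groups, each a pool split into 3 libraries. The authors built libraries with SMART-seq v4 and Nextera XT, aligned reads to mm10 and estimated expression with Cufflinks; the study's methods name bowtie2 and the submitters' processing notes name TopHat2, with FastQC, Trimmomatic and Cuffdiff. The annotation is not given in the sources used here. The deposited values are FPKM per locus, estimated by the authors for each library. The labels state 20000000 paired-end reads per sample. Totals of mapped reads were not analysed here. Fragments derived from the Cufflinks interval, 777 to 2956 for Cplx1 and 90.9 to 440.2 for Stxbp5, are a rough guide and no read count. They did not follow level, with 3404 to 3798 for Snap25 (mean scaled FPKM 2658) and 9739 to 19815 for Cplx3 (733).

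FPKM was summed per symbol, 2 genes with failed estimates were left out, and values were divided by median-of-ratios factors. Genes with a mean of at least 0.5 (13043) were fitted as log2(scaled FPKM + 1) with limma 3.58.1 (R 4.3.3). Each group's mean came from its own 3 libraries, and the spread was estimated over all 9 libraries with a variance trend. The FDR is a Benjamini-Hochberg adjusted p per comparison, with a threshold of 0.1. With 3 libraries against 3, an exact permutation test of 1 gene cannot give a p below 0.1, and none was run. On simulated data for 13043 genes, 169 of 200 changed genes (84.5%) were recovered in Moderate IOP against Control with 7 wrong calls. A comparison simulated without change gave 0. Recovery at differences of the size seen in the members was not tested. Summaries used Python 3.11.15 (numpy 2.4.6, pandas 2.3.3), and plots used matplotlib 3.10.9.

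The set of names, roles, lists and tests was chosen with earlier results of these data known, although the matching itself used symbols alone. The members named were those called in any comparison, the 2 most abundant per role, the 3 highest and 3 lowest differences per comparison, and those in paralog ratios. Alternatives covered scaling, pseudocount, filter, failed estimates, loci per symbol, the libraries in the fit, a replicate block and each library left out in turn. The fit without both microRNA-rich libraries and the ratio of Cplx1 to Cplx3 were chosen after seeing the data. Protein sequences were not used here, and single results of 2 members are not reported here.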

Additional observations from a re-analysis of the deposited data

Results flagged for a closer look

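In 4 members the differences of Mild IOP and Moderate IOP from Control had opposite signs, and the direct comparison of the 2 microbead groups was called by limma. Unc13c, a priming factor, was at 0.53 under Mild IOP and -0.42 under Moderate IOP, a difference of -0.96 (FDR 0.031). Rab3b, a vesicle Rab protein, was at -0.18 and 0.75, a difference of 0.92 (FDR 0.076). Stx16, a trans-Golgi SNARE, was at 0.38 and -0.34, a difference of -0.72 (FDR 0.078). Rab3a was at -0.27 and 0.087, a difference of 0.35 (FDR 0.093). These 4 are 5.97% of tested members, beside 8.59% of all genes tested (1120 of 13043) that met the same conditions. None of the 4 was called against Control in either group, and the 2 differences share the Control libraries.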

How the results depend on the processing

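The 28 log2 fold changes of members that were called or had the largest differences were followed over the 19 alternatives. Of these values, 480 kept their direction and side of the threshold, 41 lost a call, 6 gained one and 3 reversed. Syngr2 and Stx2 lay under the filter of a mean of at least 2 and had no value there. The reversed values were small and uncalled: Rab3b in Mild IOP against Control ranged from -0.43 to 0.030 when each library was left out and was 0.030 without both microRNA-rich libraries, and Stxbp5 ranged from -0.22 to 0.097. The count of members called in Moderate IOP against Control (1) became 3 without scaling, 2 without a filter, 2 with a mean of at least 2, and 0 without both microRNA-rich libraries, and ranged from 0 to 2 when each library was left out (0 without Control replicates 1 or 2 or Moderate IOP replicate 2). In Moderate IOP against Mild IOP (5) it became 7 with a mean of at least 2, 6 with the highest locus of a symbol only, 6 without scaling, 2 without a filter, 3 with only the 6 libraries compared, 2 with the replicate block and 0 without both microRNA-rich libraries, and ranged from 0 to 5 when each library was left out (0 without Mild IOP replicate 2). Calls were gained by leaving out a library for Stxbp5 in Moderate IOP against Control (without Moderate IOP replicate 3, limma FDR 0.0997) and for Stx7 there (without Control replicate 3, limma FDR 0.0817). In Moderate IOP against Mild IOP they were gained without Moderate IOP replicate 1 for Cplx1 (limma FDR 0.0582), Syt2 (limma FDR 0.0785) and Syngr2 (limma FDR 0.0899), without Moderate IOP replicate 3 for Syt9 (limma FDR 0.0919) and without Mild IOP replicate 3 for Sv2a (limma FDR 0.0686). Rims1 was called lower there with its highest locus only (-0.94, limma FDR 0.0358). The member count stayed at 0 in Mild IOP against Control in all 19. Over all genes, Moderate against Mild had 917 higher and 407 lower, and 731 and 662 without scaling, which moved the median of all genes to -0.087. The median of members changed sign without Moderate IOP replicate 2 in Moderate IOP against Control (0.0092) and against Mild IOP (0.013), and without Mild IOP replicate 1 in Mild IOP against Control (-0.015). The summed level in Mild IOP was 8568 without scaling and 8382 with upper-quartile scaling, and the log2 ratio of Rims1 to Rims2 was -2.59 with the highest locus only. The causes were not tested. Deviations of same-numbered libraries did not pair (all correlations under 0.1), so the replicate block, which called 0, 1 and 2 members in the 3 comparisons, shares only a number. Few fragments limit low members such as Syt2, with 17.1 fragments in its lowest library.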
